A study of Mus musculus with 6 samples.

Results

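The 51 probe sets annotated to immunoglobulin heavy or light chain genes were compared between lung cells of Bmi1 mutant and Bmi1 wild-type mice. They comprise every probe set with a gene symbol of an immunoglobulin variable, joining or constant segment in the platform annotation, and they are 51 of the 45037 probe sets tested. RNA was measured on 6 Affymetrix Mouse Genome 430 2.0 arrays, 3 for Bmi1 mutant mice (labelled Bmi1 null) and 3 for Bmi1 wild-type mice, all female, 4 months old and of a mixed Bl6/129 background. The cells came fresh from digested lungs, without culture, and had been sorted as live and negative for CD31 and CD45, a gate meant to remove endothelial and blood cells, and the RNA was amplified before labelling. Arrays are numbered as biological replicates, but whether each stands for 1 mouse or a pool is not given, so the p-values measure only the spread between these samples.

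An antibody is made of paired heavy and light chains. The heavy chain locus lies on mouse chromosome 12, the kappa light chain locus on chromosome 6 and the lambda light chain locus on chromosome 16 (RefSeq, assembly GRCm38.p6). Each developing B cell joins single variable and joining segments, and for heavy chains a diversity segment, and transcribes them together with a constant segment, which for heavy chains sets the isotype. Naive B cells carry IgM and IgD on their surface, activated B cells can switch to IgG, IgA or IgE, and plasma cells secrete large amounts of antibody. IgA is the main antibody of mucosal surfaces such as the airways. Probe sets for rearranged genes were designed from individual antibody sequences, so a probe set annotated to a constant gene may also read a variable segment.

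By annotation, 23 of the 51 probe sets belonged to heavy chains, 24 to kappa and 4 to lambda chains. The heavy chain probe sets comprised 12 for Ighm, 4 for Ighg3, 3 for Igha, 1 for the variable segment Ighv14-2 and 3 that list Ighv14-2, Ighg3 and Ighm together. The constant genes Ighd and Ighe had no probe set under the rule. Of the kappa probe sets, 3 list Igkc with several variable and joining segments and 21 list variable segments. In all, 38 of the 51 carried 1 symbol and 13 carried several, and 15 of them share a source sequence with another, so the probe sets are not independent of each other. Their mean signal was below 100 in 20 probe sets, on arrays whose median signal ranged from 97.4 to 114.

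The targeted gene was not lower in the arrays labelled mutant. Of the 2 Bmi1 probe sets, one read 1446 ± 151 in mutant and 1047 ± 102 in wild-type arrays (SD, n = 3 each, adjusted p = 0.348, limma) and the other 665 ± 147 and 588 ± 83.4 (adjusted p = 0.821). Which part of Bmi1 the mutant allele lacks is not given, so these probe sets cannot check the genotypes, and each direction given here rests on the labels. Despite the sort, Ptprc, which encodes CD45, read 5767 ± 852 in mutant and 7716 ± 966 in wild-type arrays, and Pecam1, which encodes CD31, read 2939 ± 247 and 2247 ± 506 (SD, n = 3 each). The surfactant gene Sftpc of alveolar type 2 cells was bright, at 23341 in mutant and 21089 in wild-type arrays on average. Because RNA from whole cell preparations was measured, fewer cells of a type and less RNA per cell cannot be told apart in any result here.

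The immunoglobulin probe sets did not move as 1 group. The probe sets for IgA heavy chain and the kappa probe sets that list Igkc were bright in both genotypes and their arrays overlapped. The Ighv14-2 probe set and 1 of the Ighg3 probe sets fell in mutant arrays. Differences are mutant minus wild type of log2(signal + 16), tested with limma over all 45037 probe sets, and a probe set was called at an adjusted p under 0.05. Of the 51, 2 were called lower, or 3.92%, against 0.218% of all probe sets, and 0 were called higher, against 0.187% of all. At an unadjusted p under 0.05 there were 13 of the 51, or 25.5%, against 13.0% of all probe sets: 13 were lower, against 7.61% of all, and 0 were higher, against 5.43% of all. All 3 mutant arrays lay below all 3 wild-type arrays in 12 of the 51, or 23.5%, against 10.8% of all probe sets, and above them in 1, against 8.11% of all. The median difference was -0.31, against -0.03 over all probe sets, and 34 of the 51 lay below 0, or 66.7%, against 53.7% of all. Without mutant replicate 1, which was the lowest array in 25 of the 51, the median was -0.04, against -0.02 over all probe sets. That array also had the lowest median signal over all probe sets, 97.4, against 106 to 114 on the others. The share of all probe sets in which it was lowest was not counted. Whether these shares differ from the background beyond chance was not tested.

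**Figure D1:**
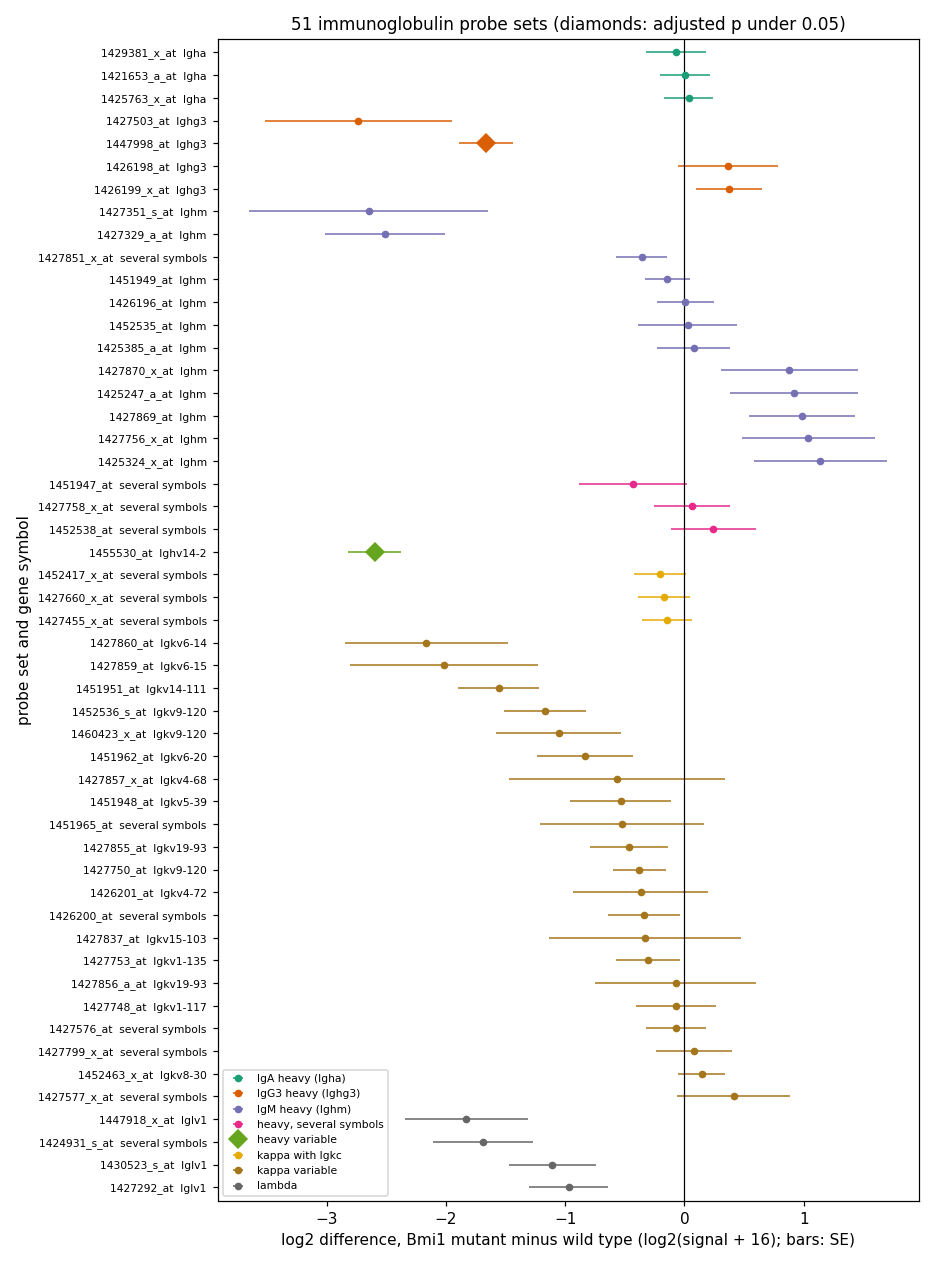
Log2 difference (mutant minus wild type, x axis) of each of the 51 probe sets (y axis, coloured by chain and isotype), with limma's standard error as bars and diamonds for an adjusted p under 0.05. The 3 Igha and 3 Igkc probe sets sit close to 0, the 4 lambda probe sets all lie below 0, and the Ighm probe sets spread from -2.65 to 1.14.

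IgA heavy chain RNA gave a strong and similar signal in both genotypes. Probe set 1421653_a_at of Igha, the constant region of IgA, read 11535, 14807 and 13775 in mutant arrays and 14109, 15184 and 10827 in wild-type arrays. The ranges of the genotypes lie over each other, with the lowest array being a wild-type one. The log2 difference was 0.01 ± 0.21 (SE, adjusted p = 0.993, limma), and its 95% interval ran from -0.49 to 0.50, that is from 0.713 to 1.41 times the wild-type level. The other Igha probe sets, 1425763_x_at and 1429381_x_at, differed by 0.04 ± 0.20 and -0.07 ± 0.25. Differences this close to 0 changed sign with the scaling or with the left-out array, so they carry no direction.

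Of the 4 probe sets for IgG3 heavy chain RNA, the constant region Ighg3, the 2 with the highest mean had lower values in every mutant array, and 1 of them was called. Probe set 1447998_at read 10.8, 21.9 and 15.0 in mutant arrays and 86.1, 104 and 66.3 in wild-type arrays. The genotypes do not overlap, and the probe set is dim, with a mean of 50.8 over the 6 arrays. It fell by 1.67 on the log2 scale (SE 0.23, adjusted p = 0.0454, limma), a call lost whichever array was left out (adjusted p between 0.0844, leaving out mutant replicate 2, and 0.184, leaving out wild-type replicate 2), with the trended prior (0.0545) and with offsets of 1 (0.0914) and 64 (0.0569). Over all 45037 probe sets, at most 37 were called lower with an array left out and 12 with an offset of 1. The main fit called 98 lower, the trended prior 242 and an offset of 64 called 114. The brighter probe set 1427503_at read 92.0, 314 and 65.0 in mutant arrays and 444, 2841 and 633 in wild-type arrays. Wild-type replicate 2 stands far above the other wild-type arrays, and the genotypes do not overlap. The log2 difference was -2.74 ± 0.78 (SE, adjusted p = 0.218), and it was -1.94 without wild-type replicate 2. The remaining Ighg3 probe sets, 1426198_at and 1426199_x_at, come from 1 source sequence and stayed below a signal of 33 on all 6 arrays, with differences of 0.36 and 0.37.

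The 12 Ighm probe sets, annotated to the constant region of IgM, went in opposite directions. Probe set 1427351_s_at read 55.4, 295 and 1448 in mutant arrays and 2060, 3016 and 1257 in wild-type arrays. Mutant replicates 1 and 2 were far below all wild-type arrays, while mutant replicate 3 lay within the wild-type range. Its log2 difference was -2.65 ± 1.00 (SE, adjusted p = 0.329, limma), and it was -1.57 without mutant replicate 1. Probe set 1427329_a_at, chosen after its values were seen, showed the same order of mutant arrays, with 109, 249 and 516 in mutant and 1393, 1921 and 1193 in wild-type arrays. Here the genotypes do not overlap, and the log2 difference was -2.51 ± 0.50 (SE, adjusted p = 0.114, and 0.0345 with the trended prior).

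In 5 other Ighm probe sets the signal of mutant replicate 2 was over 2 times that of every other array. Probe set 1427869_at read 1063, 3541 and 1246 in mutant arrays and 868, 950 and 717 in wild-type arrays, the 1 case among the 51 in which all mutant arrays lay above all wild-type arrays. Its log2 difference was 0.98 ± 0.45 (SE, adjusted p = 0.412, limma). Probe set 1425324_x_at, with the greatest positive difference of the 51 (1.14 ± 0.56, adjusted p = 0.448), read 568, 2571 and 797 in mutant arrays and 639, 504 and 322 in wild-type arrays. Probe sets 1425247_a_at, 1427756_x_at and 1427870_x_at, of which the last was chosen after its values were seen, had the same shape. Over these 5, mutant replicate 2 was 2.84 to 3.23 times as bright as the next highest array. Their differences lay between 0.88 and 1.14, and between 0.20 and 0.50 without mutant replicate 2. The 5 were grouped by their high signal on that array after their values were seen. That 1 array carried most of their differences therefore restates the grouping. The 5 rest on 4 source sequences, since 1427869_at and 1427870_x_at share one. The log2 ratio of 1427351_s_at to 1427869_at was -3.92, -3.51 and 0.21 in mutant arrays and 1.23, 1.65 and 0.80 in wild-type arrays. This pair was chosen after its values were seen, as the Ighm probe set with the lowest difference and the one with the highest mean, so the gap between the genotypes restates that choice and was not tested.

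**Figure D2:**
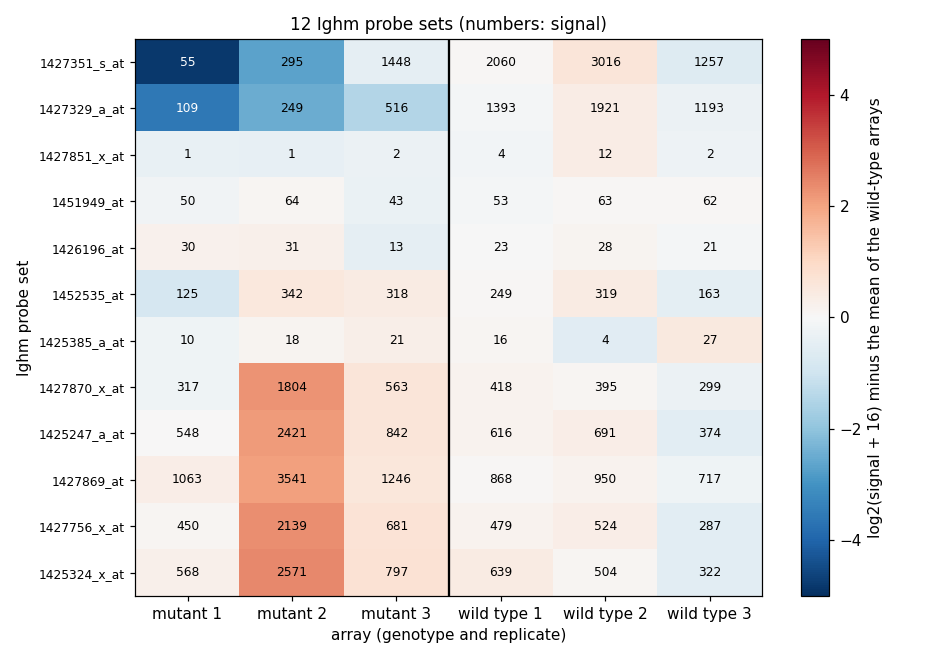
The 12 Ighm probe sets (rows, ordered by their log2 difference) on the 6 arrays (columns, mutant left of the line and wild type right), coloured by log2(signal + 16) minus the mean of the wild-type arrays, with the signal printed in each cell. The top 2 rows are lowest in mutant replicate 1, and the bottom 5 rows are highest in mutant replicate 2.

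Of the other Ighm probe sets, 1452535_at read 125, 342 and 318 in mutant and 249, 319 and 163 in wild-type arrays, a difference of 0.03, and the remaining 4 stayed below a signal of 64 on all arrays. The 3 probe sets that list Ighv14-2, Ighg3 and Ighm together were dim as well, at most 72.3 on any array, and differed by 0.07 (1427758_x_at), -0.43 (1451947_at) and 0.24 (1452538_at), with overlapping genotypes.

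The heavy chain variable segment Ighv14-2 had the smallest p-value among the 51. Probe set 1455530_at read 136, 206 and 133 in mutant arrays and 926, 1136 and 1016 in wild-type arrays. The arrays of each genotype lie close together and far from the other genotype. The mean signal was 158 ± 41.1 in mutant and 1026 ± 105 in wild-type arrays (SD, n = 3 each), 6.48 times higher in wild type, and the log2 difference was -2.60 ± 0.22 (SE, adjusted p = 0.0150, limma). The direction held in all 14 other settings, but the call did not hold when a wild-type array was left out (adjusted p = 0.0790 for replicate 1, 0.107 for 2 and 0.0884 for 3), nor when mutant replicate 1 was (0.0823), nor with an offset of 1 (0.0514). The replicate block is covered in the closing section. Leaving out mutant replicate 2 or 3 gave an adjusted p of 0.0484 and 0.0464. The 3 other probe sets that list Ighv14-2 among their symbols did not follow it, as described above.

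**Figure D3:**
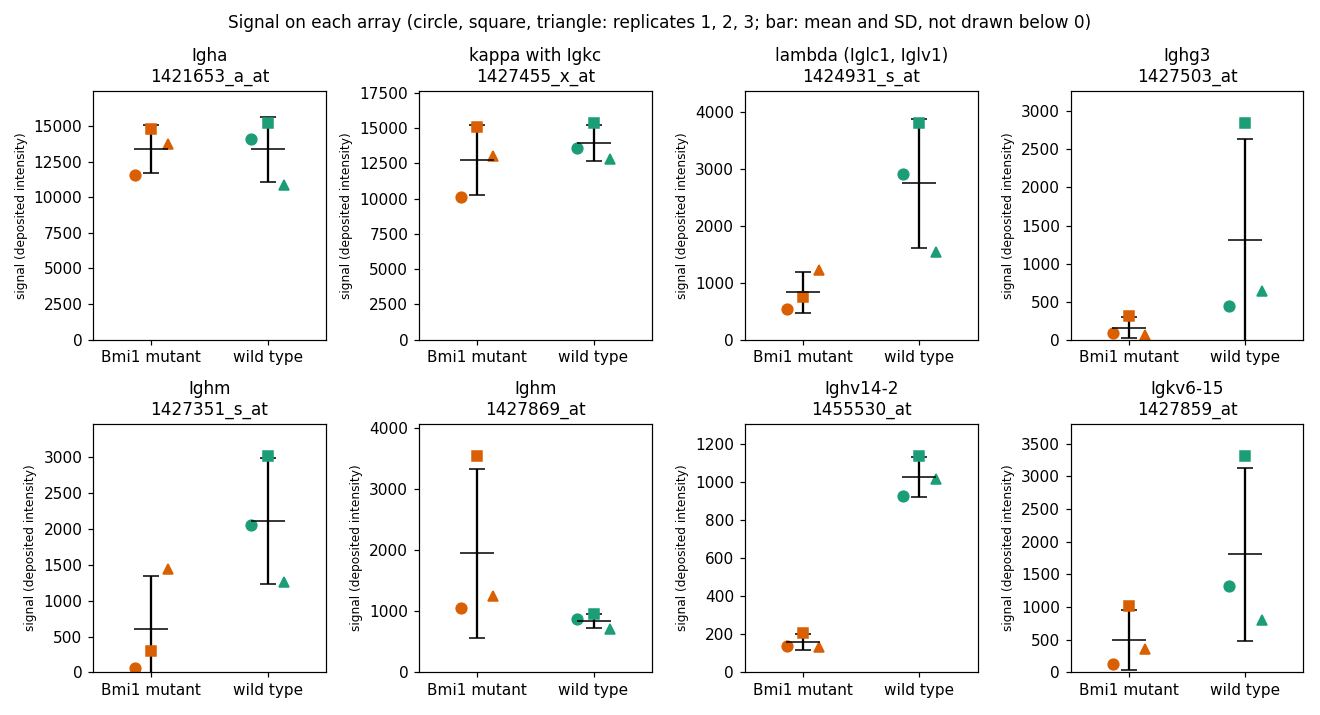
Signal (deposited intensity, linear y axis from 0) of 8 probe sets on each mutant and wild-type array, with circle, square and triangle for replicates 1, 2 and 3 and the mean and SD as bars. Igha and the kappa probe set with Igkc lie at 10126 to 15323 in both genotypes, Ighv14-2 separates the genotypes without overlap, and the 2 Ighm probe sets differ in direction.

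The kappa light chain probe sets that list Igkc gave similar signals in both genotypes, and which segment they read could not be checked. Probe set 1427455_x_at, which lists Igkc, Igkj1 and several variable segments, read 10126, 15064 and 12995 in mutant arrays and 13598, 15323 and 12816 in wild-type arrays. Mutant replicate 1 was the lowest array and the genotypes overlap. The log2 difference was -0.14 ± 0.21 (SE, adjusted p = 0.832, limma), with a 95% interval from -0.64 to 0.35. The other probe sets with Igkc, 1427660_x_at and 1452417_x_at, differed by -0.17 and -0.21. A probe set annotated to Igkv8-30, 1452463_x_at, was also bright, with 9396, 10866 and 10631 in mutant and 8936, 11225 and 7983 in wild-type arrays, and differed by 0.15 ± 0.20 (adjusted p = 0.814).

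Of the 21 probe sets for kappa variable segments, 18 had a difference below 0 with a median of -0.38, and 0 were called in either direction, against 0.404% of all probe sets (limma). Mutant replicate 1, the array with the lowest median signal over all probe sets, was the lowest in 14 of them. Without it 14 of the 21 lay below 0 and the median was -0.16. In 4 of the 21 all mutant arrays lay below all wild-type arrays, against 10.8% of all probe sets, and 4 had an unadjusted p under 0.05, against 13.0% of all. Probe set 1427859_at of Igkv6-15 read 124, 1013 and 366 in mutant arrays and 1320, 3308 and 802 in wild-type arrays. Mutant replicate 1 is lowest, wild-type replicate 2 is highest and mutant replicate 2 lies above wild-type replicate 3. The log2 difference was -2.02 ± 0.79 (SE, adjusted p = 0.344). Igkv6-14 (1427860_at), which shares its source sequence, differed by -2.16 ± 0.68 (adjusted p = 0.251), and Igkv14-111 (1451951_at) by -1.56 ± 0.34 (adjusted p = 0.131); both were chosen after their values were seen. The 4 other probe sets that list Igkv6-14, each beside further symbols, did not follow it and differed by -0.53 to 0.41. For Igkv9-120, 1460423_x_at read 230, 1040 and 784 in mutant and 1471, 1167 and 1045 in wild-type arrays, a difference of -1.06 ± 0.52 (adjusted p = 0.453) that was -0.42 without mutant replicate 1. The other Igkv9-120 probe sets, both chosen after their values were seen, gave -1.17 ± 0.35 (1452536_s_at, adjusted p = 0.232, all mutant arrays lower) and -0.38 (1427750_at). Of the rest, Igkv15-103 (1427837_at, chosen after its values were seen) read 41.4, 171 and 620 in mutant and 346, 193 and 164 in wild-type arrays, so that its highest and its lowest array were both mutant ones and its difference was -0.33, or 0.53 without mutant replicate 1.

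Each of the 4 lambda light chain probe sets had a difference below 0, and 0 of the 4 passed the test after adjustment. All 4 had an unadjusted p under 0.05 (limma), against 13.0% of all probe sets, or 7.61% for lower values. All mutant arrays lay below all wild-type arrays in 3 of the 4, against 10.8% of all probe sets. All 4 list Iglv1 and the only other lambda symbol is Iglc1, so they are not independent readings of lambda RNA. Lambda is the minor light chain of mice. Probe set 1424931_s_at, which lists Iglc1 and Iglv1, read 530, 743 and 1229 in mutant arrays and 2903, 3793 and 1544 in wild-type arrays. The genotypes do not overlap, with mutant replicate 3 and wild-type replicate 3 closest to each other. The log2 difference was -1.69 ± 0.42 (SE, adjusted p = 0.169). The Iglv1 probe sets differed by -1.11 ± 0.36 (1430523_s_at, adjusted p = 0.270), -1.83 ± 0.52 (1447918_x_at, adjusted p = 0.210) and -0.97 ± 0.33 (1427292_at, adjusted p = 0.288, the last outside the naming rule). Probe set 1430523_s_at read 86.7, 114 and 164 in mutant and 296, 413 and 163 in wild-type arrays, where mutant replicate 3 lay just above wild-type replicate 3, so that the genotypes overlap. The lambda median was -1.40, and it ranged from -1.68 to -1.17 when single arrays were left out.

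Some pairs of probe sets were also compared within each array. The log2 ratio of the Iglc1 and Iglv1 probe set to the first Igkc probe set was -4.22, -4.31 and -3.39 in mutant arrays and -2.22, -2.01 and -3.04 in wild-type arrays. The genotypes do not overlap, and the ratio averaged -3.97 ± 0.51 in mutant and -2.42 ± 0.54 in wild-type arrays (SD, n = 3 each). The same ratio of Ighv14-2 to Igha averaged -6.28 ± 0.24 and -3.67 ± 0.26. These pairs were chosen after their values were seen, and no test was made of them.

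The median immunoglobulin probe set varied more between arrays than the median of all probe sets, but not in every class. Among probe sets with a mean signal of at least 100, the median SD of log2 values was 0.75 in mutant and 0.38 in wild-type arrays over the 31 immunoglobulin probe sets, against 0.26 and 0.21 over all 23477. Under the same filter, 8 Ighm probe sets had medians of 1.11 in mutant and 0.45 in wild-type arrays. The 3 Igha probe sets had 0.19 and 0.26, and the 3 with Igkc 0.32 and 0.12. Wild-type replicate 2 was the highest of the 6 arrays in 19 of the 51 and mutant replicate 2 in 16, while mutant replicate 1 was the lowest in 25 and wild-type replicate 3 in 11. By probe design, the 17 probe sets ending in _x_at, which can bind several related transcripts, had a median difference of 0.04. The median was -0.38 for the 25 ending in _at, -1.43 for the 4 ending in _s_at and 0.01 for the 5 ending in _a_at. All 3 with Igkc end in _x_at, and lambda probe sets are among those ending in _s_at, so ending and chain class are not separate. The rule leaves out 5 probe sets with the older symbols Igk and Igk-V21. The brightest of them, 1452557_a_at, read 8726, 13442 and 10644 in mutant and 12157, 14291 and 10984 in wild-type arrays, much like the Igkc probe sets.

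Of 21 measured B cell identity genes, 9 were called lower and 0 higher, against 0.313% and 0.242% of 18194 genes, and the median difference was -1.76, against 0.01 over all genes, each gene read by its brightest probe set. Ms4a1, the B cell surface protein CD20, read 133, 132 and 103 in mutant and 1261, 1598 and 1474 in wild-type arrays, a difference of -3.40 ± 0.19 (SE, adjusted p = 0.00690, limma). Cd79b, which signals for the surface antibody, fell by 1.96 (adjusted p = 0.0180), and Cd79a, its partner, differed by -2.34 (adjusted p = 0.0559). Tnfrsf13c, a receptor for a B cell survival factor, fell by 2.27 (adjusted p = 0.0277). Of those not called, the B cell factor Ebf1 differed by -0.33, Vpreb3 by 0.49 and Cd24a, which other cell types also express, by 0.19. Cd24a made up most of the list's signal in mutant arrays, at 12449, 15189 and 11925, against 11154, 11854 and 11481 in wild-type arrays. The summed signal of the list was 15200 to 19120 in mutant and 23132 to 26589 in wild-type arrays, and without Cd24a it was 3275 to 3931 in mutant and 11977 to 14735 in wild-type arrays. The number called lower was 0 or 1 when any single array was left out and 1 with an offset of 1. Over all 45037 probe sets, at most 37 were called lower with an array left out and 12 with an offset of 1, against 98 in the main fit. All mutant arrays lay below all wild-type arrays in 16 of the 21, against 10.0% of genes, and above them in 1, against 10.4%. These genes were chosen after their values were seen, and their part in the immunoglobulin differences was not tested.

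Of 19 measured plasma cell genes, 1 was called lower and 0 higher, against 0.313% and 0.242% of all genes, with a median of -0.35. The called gene was Pou2af1, a coactivator of immunoglobulin transcription, which read 774, 834 and 703 in mutant and 2093, 2507 and 1908 in wild-type arrays and fell by 1.47 (SE 0.19, adjusted p = 0.0371, limma). When any single array was left out, 0 of the 19 were called, and at most 37 of all 45037 probe sets were called lower. Jchain, which links IgA and IgM into polymers, read 2510, 3896 and 3586 in mutant and 4291, 5054 and 3370 in wild-type arrays. The genotypes overlap, and the difference was -0.35 ± 0.25 (SE, adjusted p = 0.615). Xbp1, a factor for antibody secretion, differed by -0.17 (adjusted p = 0.781), Irf4 by -1.29 (adjusted p = 0.0710) and Mzb1, a chaperone of antibody assembly, by -1.03 (adjusted p = 0.241). Of the 19, 16 lay below 0, and the 3 above were Txndc5 (0.33), Fkbp11 (0.24) and Sdc1 (0.14), the brightest of the list. Jchain, Xbp1, Irf4 and Mzb1 were named outside the naming rule. All mutant arrays lay below all wild-type arrays in 7 of the 19, Irf4 and Mzb1 among them, against 10.0% of genes. They lay above in 0, against 10.4%.

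Among 19 measured transcription factors of immunoglobulin genes, 3 were called lower and 0 higher, against 0.313% and 0.242% of all genes, with a median of -0.44. They were Pou2af1, Pax5, the factor that fixes B cell identity, which fell by 3.04 (adjusted p = 0.0363, limma), and Irf8, which also acts in myeloid cells and fell by 1.60 (adjusted p = 0.0476). When any single array was left out, or with an offset of 1, 0 of the 19 were called. In those fits at most 37 of all 45037 probe sets were called lower, against 98 in the main fit. Of 16 measured genes of rearrangement and class switching, 0 were called with limma, against 0.313% lower and 0.242% higher of all genes. The smallest p-values there belonged to Igll1, a surrogate light chain (-1.08, adjusted p = 0.285), the mismatch repair gene Msh6 (-0.51, adjusted p = 0.338) and the surrogate light chain Vpreb1 (-0.95, adjusted p = 0.345). The recombinase genes Rag1 and Rag2 had signals of at most 33.1 on any array.

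Antibody receptors and transport genes were split. Pigr, the receptor that carries polymeric IgA and IgM across epithelium, rose: it read 2409, 3650 and 3500 in mutant and 1002, 724 and 539 in wild-type arrays. The genotypes do not overlap, and the difference was 2.07 ± 0.29 (SE, adjusted p = 0.0468, limma). The call did not hold whichever array was left out (adjusted p between 0.0823, leaving out wild-type replicate 1, and 0.188, leaving out replicate 2) nor with an offset of 1 (0.109). Over all 45037 probe sets, at most 29 were called higher with an array left out and 10 with an offset of 1, against 84 in the main fit. The other Pigr probe set differed by 1.90 (adjusted p = 0.120, limma). Fcrla, an Fc receptor-like gene of B cells, fell by 2.82 (adjusted p = 0.0489), and Fcmr, the IgM receptor, differed by -2.57 (adjusted p = 0.123). Of 16 measured genes, 1 was called higher and 1 lower, against 0.242% and 0.313% of all genes, with a median of -0.26.

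**Figure D4:**
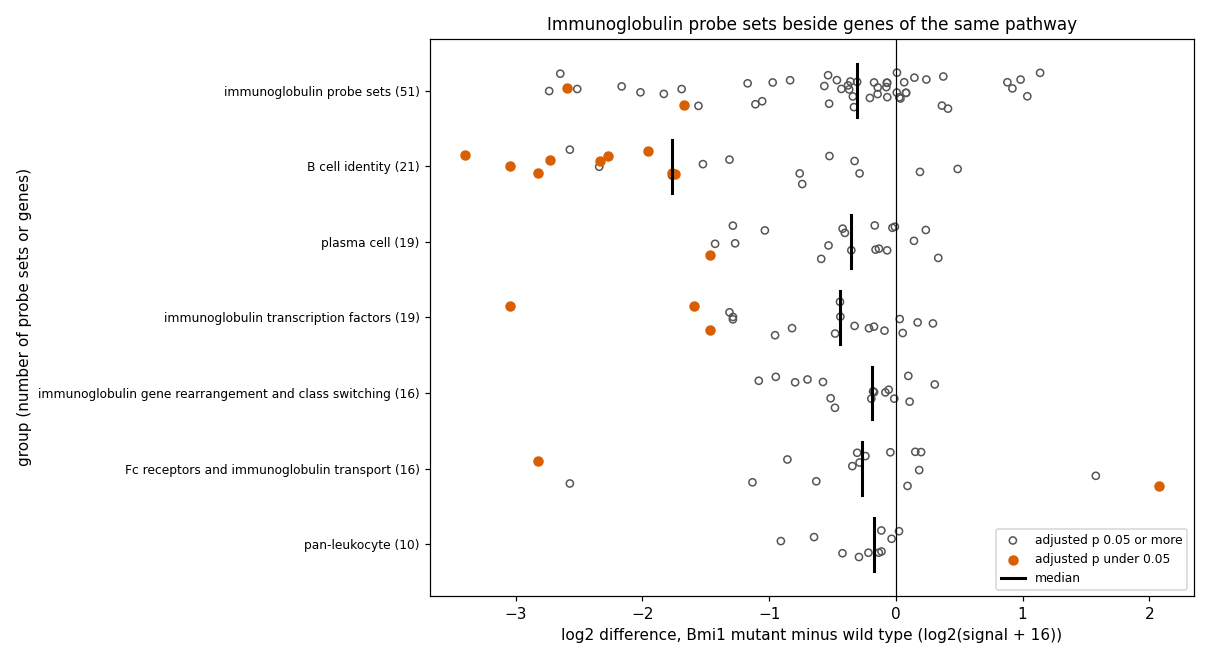
Log2 differences (mutant minus wild type, x axis) of the 51 immunoglobulin probe sets and of the genes of 6 lists (y axis, number in brackets), filled where the adjusted p was under 0.05, with the median as a black line. B cell identity genes have a median of -1.76, against -0.31 for the immunoglobulin probe sets and -0.35 for plasma cell genes, and Pigr stands at 2.07.

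The lists of other cell markers read as follows. The 10 pan-leukocyte genes had a median of -0.18 with 0 called (limma), and their summed signal was 68896 to 84127 in mutant and 73963 to 93124 in wild-type arrays. Over all genes, 0.313% were called lower and 0.242% higher. The 11 natural killer cell genes had 7 called lower and a median of -2.77, with a summed signal of 2741 to 4798 in mutant and 14194 to 22039 in wild-type arrays, and 0 to 3 were called when single arrays were left out. With single arrays left out, at most 37 of all 45037 probe sets were called lower. The 11 neutrophil genes had 2 called higher and a median of 1.53, with sums of 27035 to 59801 and 11677 to 15937. The 12 T cell genes had 0 called and a median of -0.87, with 12 below 0 and sums of 6251 to 8639 in mutant and 11055 to 15823 in wild-type arrays. Of the rest, 0 of 10 macrophage and monocyte genes, 0 of 9 endothelial, 0 of 9 fibroblast and 0 of 8 alveolar type 2 cell genes were called, with medians of -0.15, 0.10, 0.68 and 0.13. All 9 fibroblast genes lay above 0, with sums of 42861 to 48413 in mutant and 19742 to 34253 in wild-type arrays. So did all 8 alveolar type 2 cell genes, with sums of 110302 to 117136 and 94154 to 107181. The macrophage and endothelial sums overlapped between the genotypes. What part any of these cell types had in the immunoglobulin signals was not tested.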

How the data were processed

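The authors deposited 1 linear intensity per probe set and array. The submitters' processing notes name Affymetrix Expression Console 1.1, and how it summarized probes or corrected background is not given here. Each array's trimmed mean intensity was 500.0023 to 500.0025, so the arrays had been scaled to a common mean. Precision is limited by the number of arrays.

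Of 45101 probe sets, 64 controls were left out. Intensities were turned to log2(signal + 16), which understates folds of dim probe sets, and tested with limma 3.58.1 (lmFit, eBayes; R 4.3.3) without covariates and Benjamini-Hochberg adjustment over 45037 probe sets. Symbols came from the platform annotation, and each gene of a list was read by its single-gene probe set with the highest mean.

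The fit was tested on 20 simulated data sets of 45037 probe sets with 200 changed: 3.21% of those changed by a log2 of 1, 51.0% by 2 and 77.4% by 3 were recovered.

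The members and gene lists were chosen with earlier results of these data known. Named probe sets are the called ones, the 3 with the highest mean in each class and the 3 greatest differences in each direction. Named genes are, in the lists of transcription factors, rearrangement and Fc receptors, the called ones and the 3 with the smallest p. The probe sets 1426199_x_at, 1452535_at and 1452557_a_at, and Bmi1, Ptprc, Pecam1 and Sftpc, were named besides. Alternatives were other offsets, quantile normalization, median centring, a filter on dim probe sets, a trended prior, weighted arrays, a block for replicate number and leaving out each array.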

Additional observations from a re-analysis of the deposited data

How the results depend on the processing

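Of the 51 immunoglobulin probe sets, 2 were called lower, and 0 higher in every setting run. The number called lower was 0 with an offset of 1 (12 lower and 10 higher over all probe sets). It was 1 with an offset of 64 (114 lower and 92 higher over all 45037). Among probe sets with a mean signal of at least 100 it was 1 of 31, against 234 lower and 178 higher of 23477. It ranged from 0 to 1 when single arrays were left out, where the whole table had 0 to 66 calls. With the replicate number as a block, 0 members and 0 probe sets in all were called (limma), with 15 members and 5858 probe sets at an unadjusted p under 0.05. Under the block the adjusted p was 0.0804 for Ighv14-2 (1455530_at) and 0.125 for Ighg3 (1447998_at). Same-numbered arrays correlated at 0.0254 to 0.0631 in their deviations from the group means, each array best with its own number, a hint from the data that falls short of a pairing. With the filter on dim probe sets, the median difference was -2.74 for Ighg, from 1 probe set, and 0.90 for Ighm, from 8. The median was -2.30 for Ighv14-2 with an offset of 64 and -1.96 for lambda with an offset of 1. For the probe sets with several isotypes, the median ranged from -0.21 to 0.18 when single arrays were left out. Medians of the other classes moved by less than the spread between arrays. Of the named probe sets that reversed, Igkv15-103 (1427837_at) ranged from -1.20 to 0.53 when single arrays were left out, and the Ighm probe set 1452535_at from -0.22 to 0.46, with -0.051 under array weights. For Igha, 1421653_a_at was -0.003117 with quantile normalization, -0.016 with array weights and -0.14 to 0.11 when single arrays were left out. Likewise 1425763_x_at ranged from -0.10 to 0.14 and 1429381_x_at from -0.28 to 0.079, and 1429381_x_at was 0.027 with median centring. Under left-out arrays, 1427455_x_at ranged from -0.27 to 0.012, 1427758_x_at from -0.21 to 0.29 and 1452538_at from -0.060 to 0.64. Settings for B cell, plasma cell and natural killer cell genes, transcription factors and Pigr were added after seeing the data. The cause of these changes was not tested. Signals of 20 probe sets below 100 limit what can be seen.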
